A study of Arabidopsis thaliana with 18 samples.

Results

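The Casparian strip genes of the root endodermis are described here by 8 Arabidopsis thaliana genes, and their levels were followed in seedlings of flavonoid mutants and of the wild type Col-0. They were chosen by locus identifier out of 32547 nuclear loci in the count files, and all 8 were present: CASP1 (AT2G36100), CASP2 (AT3G11550), CASP4 (AT5G06200), CASP5 (AT5G15290), MYB36 (AT5G57620), ESB1 (AT2G28670), PER64 (AT5G42180) and SGN3 (AT4G20140, which the reference table lists as GSO1). The set was put together because CASP1 was low in the line ban-7. The level of any member in ban-7, and the difference between ban-7 and ban-6, is therefore described without a test.

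The mutant lines carried insertions in 6 flavonoid loci. They were ban-6 and ban-7, tt1-4 and tt1-5, tt3-3 and tt3-4, tt5-3 and tt5-4, the 6 alleles tt8-7 to tt8-12, and ttg1-23 and ttg1-24, and they were set against Col-0. BAN, TT3 and TT5 encode flavonoid enzymes, TT8 and TTG1 are regulators that work in a shared complex, and TT1 is a zinc finger factor. Growth was the same for mutants and Col-0, and the labels name it AIC: seedlings were shaken for 4 days with 3% sucrose in the medium, and the light was on for 24 h. Each mutant allele was represented by 1 library, so the alleles of a locus stood in as its samples, and whether the libraries had cultures of their own is not stated. The difference between the 2 Col-0 files was smaller than sampling noise, so they were counted as 1 sample, which leaves 17 samples in all.

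The endodermis is the innermost cortical layer of the root and surrounds the vascular cylinder. Its cells lay down the Casparian strip, a ring of lignin in the wall between neighbouring cells that blocks the passage of solutes through the cell walls. CASP proteins form a membrane scaffold at the site of the strip. The transcription factor MYB36 switches on CASP genes and other strip genes. The peroxidase PER64 and the dirigent-domain protein ESB1 take part in lignin deposition at the strip, and SGN3 is a receptor kinase that senses gaps in the barrier through peptide ligands. Suberin, a later coating of endodermal cells, is made by a different set of enzymes.

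The library with the fewest counts on nuclear loci was ttg1-24 (8057534) and that with the most tt3-4 (27145377). Levels below are counts per 1000000 (CPM), on which scale 3 counts make 0.372 CPM in ttg1-24 and 0.111 CPM in tt3-4, and bracketed intervals are exact 95% Poisson intervals that cover counting error only. The targeted gene was lower than in Col-0 in both ttg1 and both tt5 libraries and in 2 of the 6 tt8 libraries. It was above Col-0 in the other 6 libraries that could be judged, namely those labelled tt3-3, tt3-4, tt8-7, tt8-8, tt8-10 and tt8-12, and BAN and TT1 were at or below 0.0949 CPM in every library, so they check nothing. Calls and correlations that rest on these 6 libraries were recomputed without them, except for the tt3 comparison, which then has no line left. The labels give whole seedlings, and markers of shoot, root and seed tissue were all present. In such bulk samples a smaller share of endodermal cells and less RNA per cell cannot be told apart.

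The genes lie on chromosomes 2, 3, 4 and 5 of the TAIR10.1 assembly. CASP1 spans 15159591 to 15160799 on the minus strand of chromosome 2, and CASP2 spans 3638178 to 3639348 on the plus strand of chromosome 3. CASP4 (1877134 to 1878324), CASP5 (4967011 to 4968092), MYB36 (23334767 to 23336632) and PER64 (16852628 to 16854224) lie on the plus strand of chromosome 5. ESB1 lies on the minus strand of chromosome 2 at 12300265 to 12302358, and SGN3 on the plus strand of chromosome 4 at 10883921 to 10888270. Among the 50-base stretches of their exons, 50 being the read length in the series design, none of CASP1, CASP2, CASP4, CASP5, MYB36, PER64 or SGN3 occurred elsewhere in the nuclear genome, and 4 of 1633 in ESB1 did. ESB1 differs from the rest in its surroundings: 84.3% of its 1731 exon bases lie inside AT2G28671, a gene on the opposite strand. AT2G28671 itself had at most 8 counts in any sample. For the other members the share of exon bases inside a neighbouring gene was 7.88% in SGN3, 5.42% in CASP1, 2.76% in PER64, 0.448% in CASP5 and 0 in the rest. The strand setting of the counting is not given in the sources used here, and the part of the overlap in the level of ESB1 was not tested.

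The sequences just before the annotated starts are shown for CASP1, CASP2 and PER64, whose levels moved together across the samples, and for SGN3, whose level did not follow theirs. They are from RefSeq, assembly TAIR10.1, read in the direction of the gene, with a match to TATAAA on either strand in capitals (TTTATA is a match on the opposite strand). For CASP2 the window stops where the upstream gene ends, 77 bases before the start.
CASP1 (chr2:15160800-15161049, - strand): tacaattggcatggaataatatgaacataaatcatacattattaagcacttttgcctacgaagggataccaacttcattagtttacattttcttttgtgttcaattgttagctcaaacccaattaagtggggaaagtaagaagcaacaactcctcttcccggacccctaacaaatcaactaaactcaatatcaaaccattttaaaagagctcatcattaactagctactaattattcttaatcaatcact
CASP2 (chr3:3638101-3638177, + strand): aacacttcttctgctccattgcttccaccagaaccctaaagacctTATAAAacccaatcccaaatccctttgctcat
PER64 (chr5:16852378-16852627, + strand): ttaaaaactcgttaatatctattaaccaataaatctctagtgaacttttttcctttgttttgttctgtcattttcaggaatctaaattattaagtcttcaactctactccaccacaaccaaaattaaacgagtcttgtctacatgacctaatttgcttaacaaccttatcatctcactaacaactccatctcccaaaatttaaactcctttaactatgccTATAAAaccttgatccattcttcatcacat
SGN3 (chr4:10883671-10883920, + strand): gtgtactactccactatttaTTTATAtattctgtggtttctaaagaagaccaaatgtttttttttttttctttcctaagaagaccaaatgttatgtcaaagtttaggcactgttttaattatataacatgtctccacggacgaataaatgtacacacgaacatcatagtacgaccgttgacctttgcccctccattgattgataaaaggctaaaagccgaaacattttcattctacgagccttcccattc
The TATAAA match began 32 bases before the start in CASP2 and 30 bases before it in PER64. In SGN3 the match, on the opposite strand, lay 230 bases before the start, and CASP1 had no match in its 250 bases. Over windows of 250 bases, 5 of the 8 members held TATAAA on either strand, against 47.3% of 27443 protein-coding genes. AC elements, short motifs bound by plant MYB proteins, were also searched on both strands. The element AC-I reads ACCTACC and was held by 1.16% of all windows, AC-II reads ACCAACC and was held by 2.69%, and AC-III reads ACCTAAC and was held by 2.46%. None of the 8 windows held any of them, against 6.12% of all windows with at least 1, so no match of an AC element overlapped a TATAAA match. A match or its absence describes these letters in these windows and no more.

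CASP1, which encodes a protein of the membrane scaffold, stood at 75.8 CPM in ban-6 and 2.57 CPM in ban-7, at 12.7 and 30.7 CPM in tt1-4 and tt1-5, at 27.6 and 6.0 CPM in tt3-3 and tt3-4, at 27.0 and 56.7 CPM in tt5-3 and tt5-4 and at 53.9 and 21.2 CPM in ttg1-23 and ttg1-24. In the tt8 libraries its lowest, median and highest levels were 11.6, 22.7 and 30.4 CPM, and Col-0 stood at 58.6 CPM. All 14 lines of tt1, tt3, tt5, tt8 and ttg1 were thus below Col-0, and ban-6 was above it. Such a complete separation below Col-0 held for 12.5% of the 21185 tested genes. The ban-7 value, which chose the set, rested on 41 counts (1.84 to 3.48 CPM), and the next lowest was tt3-4 (5.12 to 7.0 CPM). These intervals leave out the spread between libraries, so the gap is described and was not tested. Ordered by CASP1, 11 of the 16 neighbouring pairs of samples had overlapping counting intervals. The places without overlap lay above ban-7, above tt3-4, between ttg1-24 and tt5-3, between tt1-5 and ttg1-23, and between Col-0 and ban-6. The order therefore had a high set of ban-6, Col-0, tt5-4 and ttg1-23, with at least 53.9 CPM each, and no sample between 30.7 and 53.9 CPM.

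**Figure D1:**
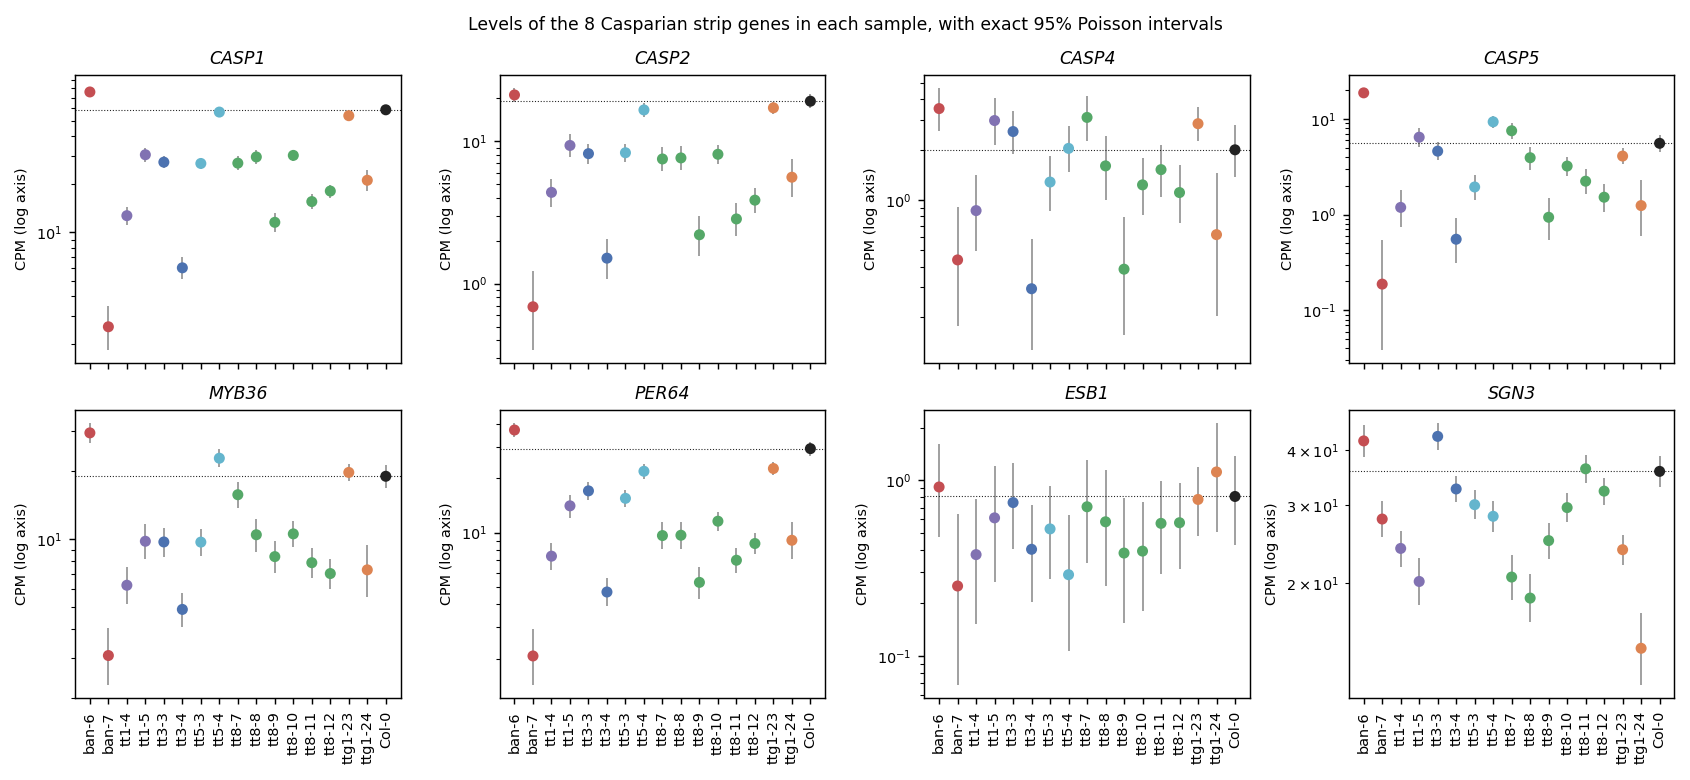
Levels of the 8 Casparian strip genes in CPM on log axes, 1 point per sample with its exact 95% Poisson interval, mutant lines left of Col-0 and coloured by locus, and the Col-0 level as a dotted line. In the CASP1 panel the points run from 2.57 CPM in ban-7 to 75.8 CPM in ban-6, while the SGN3 panel spans 14.3 to 42.9 CPM and puts ban-7 in the middle.

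CASP2, another scaffold protein gene, followed a similar order. It stood at 21.1 and 0.689 CPM in ban-6 and ban-7, at 4.37 and 9.33 CPM in tt1-4 and tt1-5, at 8.17 and 1.51 CPM in tt3-3 and tt3-4, at 8.29 and 16.6 CPM in tt5-3 and tt5-4, at 17.1 and 5.58 CPM in ttg1-23 and ttg1-24, at 2.20, 5.68 and 8.09 CPM as lowest, median and highest of tt8, and at 19.1 CPM in Col-0. Here too all 14 lines of the 5 loci other than ban lay below Col-0.

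CASP4 and CASP5, further scaffold genes, had fewer counts and did not separate the lines from Col-0. CASP4 ranged from 0.295 CPM in tt3-4, on 8 counts, to 3.52 CPM in ban-6, and ban-7 at 0.438 CPM was the third lowest. Of the 14 lines, 9 were below the 1.99 CPM of CASP4 in Col-0. CASP5 had the widest range of all members, 18.7 CPM in ban-6 and 0.188 CPM in ban-7, where it rested on 3 counts. In the other lines CASP5 lay between 0.553 CPM in tt3-4 and 9.29 CPM in tt5-4, on both sides of the 5.54 CPM in Col-0.

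MYB36, the regulator of the strip genes, stood at 29.4 and 3.07 CPM in ban-6 and ban-7, at 6.26 and 9.79 CPM in tt1-4 and tt1-5, at 9.72 and 4.90 CPM in tt3-3 and tt3-4, at 9.70 and 22.8 CPM in tt5-3 and tt5-4, at 19.7 and 7.32 CPM in ttg1-23 and ttg1-24, at 7.05, 9.42 and 15.7 CPM in tt8, and at 18.9 CPM in Col-0. The lines tt5-4 and ttg1-23 were above Col-0 together with ban-6, and the remaining lines were below it. The CASP1 level in CPM divided by the MYB36 level was 0.837 in ban-7, whose low CASP1 chose the set, against a median of 2.58 over the 17 samples and a maximum of 3.13. The next lowest ratios were 1.23 in tt3-4 and 1.38 in tt8-9.

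Of the lignin-forming members, PER64 was at 37.1 and 2.07 CPM in ban-6 and ban-7, at 7.40 and 14.1 CPM in tt1-4 and tt1-5, at 17 and 4.68 CPM in tt3-3 and tt3-4, at 15.5 and 21.9 CPM in tt5-3 and tt5-4, at 22.7 and 9.06 CPM in ttg1-23 and ttg1-24, at 5.29, 9.16 and 11.6 CPM in tt8, and at 29.2 CPM in Col-0. All 14 lines of the 5 loci were below Col-0, and no tt8 library reached the 14.1 CPM of tt1-5. ESB1 was near the limit of detection, with 4 to 21 counts per sample and 0.250 CPM in ban-7 to 1.12 CPM in ttg1-24. At that depth the counting intervals of most samples overlapped, so differences of ESB1 between lines were mostly not detectable.

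SGN3, the receptor kinase, kept to a narrower range than the strip genes. It stood at 41.9 and 27.9 CPM in ban-6 and ban-7, at 24.0 and 20.2 CPM in tt1-4 and tt1-5, at 42.9 and 32.6 CPM in tt3-3 and tt3-4, at 30.1 and 28.3 CPM in tt5-3 and tt5-4, at 23.8 and 14.3 CPM in ttg1-23 and ttg1-24, at 18.5, 27.3 and 36.2 CPM in tt8, and at 35.8 CPM in Col-0. The highest level was 3.00 times the lowest, and ban-7 was eighth from the bottom of the 17 samples. The line tt3-4, second lowest in CASP1, had more SGN3 than 12 of the other samples.

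Levels of different genes can be set beside each other per kb of exon. In Col-0 CASP1 was at 64.9 CPM per kb, PER64 at 23.7, CASP2 at 19.2, MYB36 at 13.7, SGN3 at 8.37, CASP5 at 6.21, CASP4 at 1.96 and ESB1 at 0.468 CPM per kb. In ban-7, whose low CASP1 chose the set, the order changed at the top: SGN3 led with 6.53 CPM per kb, followed by CASP1 at 2.84 and MYB36 at 2.22 CPM per kb. SGN3 also stood above CASP1 per kb in tt3-4, with 32.6 CPM on 4274 exon bases against 6.0 CPM on 904. The CASP1 level divided by the CASP2 level stayed between 2.91 and 5.48 across the 17 samples.

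Lines of the same locus differed widely in strip gene level. The 6 genes CASP1, CASP2, CASP4, CASP5, MYB36 and PER64 were all higher in tt1-5 than in tt1-4 (1.56 to 5.41 times), all higher in tt3-3 than in tt3-4 (1.98 to 8.70 times), all higher in tt5-4 than in tt5-3 (1.41 to 4.79 times) and all higher in ttg1-23 than in ttg1-24 (2.50 to 4.60 times). In ban-6 they were 8.02 to 99.3 times their level in ban-7. SGN3 did not follow: its ratio for the same pairs was 0.842 in tt1, 1.31 in tt3, 0.941 in tt5, 1.67 in ttg1 and 1.5 in ban. These ratios compare 1 library with 1 library and have no replicate check. Per locus, CASP1 averaged 41.9 ± 21.0 CPM in tt5, 37.5 ± 23.1 CPM in ttg1, 21.7 ± 12.7 CPM in tt1 and 16.8 ± 15.2 CPM in tt3 (SD, n = 2 alleles each), and 22.1 ± 8.01 CPM in tt8 (SD, n = 6 alleles). The ranges of the alleles of these 5 loci all overlapped each other.

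The spread of the strip genes over the samples was wide beside that of other genes. Without ban-7, the SD of log2(CPM + 1) over 16 samples was 0.92 for CASP1, 0.95 for CASP2, 1.00 for CASP5, 0.80 for PER64, 0.67 for MYB36, 0.56 for CASP4, 0.42 for SGN3 and 0.20 for ESB1. The median over all 21185 tested genes was 0.28 and the 95th percentile 0.83, so 7 of the 8 members were above the median and 3 above the 95th percentile.

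The question of the series was which genes differ between the mutants and Col-0, and for the strip genes no difference passed the threshold. Fold changes are mutant over Col-0 on the log2 scale, from edgeR's quasi-likelihood test with Benjamini-Hochberg adjustment over all genes. Both ban lines entered this fit, so the gap between ban-6 and ban-7 is part of the spread behind each SE and p. The low CASP1 of ban-7 that chose the set is therefore not fully outside these tests. Over the mean of the 5 loci, CASP1 was at −1.30 ± 0.99 (SE, adjusted p = 0.490), CASP2 at −1.48 ± 1.03 (0.452), PER64 at −1.38 ± 0.83 (0.384), MYB36 at −0.99 ± 0.76 (0.498) and SGN3 at −0.59 ± 0.29 (0.286). CASP5 at −0.83 ± 1.44, ESB1 at −0.66 ± 0.59 and CASP4 at −0.42 ± 1.14 had adjusted p from 0.560 to 0.863. None of the 8 members was called, against 2.13% of the 21185 genes. All 8 fitted values were below 0, with a median of −0.91, while 50.2% of all genes were below 0 with a median of −0.0028. The 8 values share the Col-0 sample and the samples in which the genes moved together, and they are not separate pieces of evidence.

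By locus the picture was the same, with the shared Col-0 sample on the other side of each comparison. In ttg1, 0 of 8 members were called, against 1.43% of all genes, and 7 of 8 values were below 0 (median −0.77). In tt8, 0 of 8 were called, against 1.98%, with 8 of 8 values below 0 (median −0.96). In tt1 the count was 0 of 8 against 1.04%, in tt3 0 of 8 against 0.401%, and in tt5 0 of 8 against 0.184%, with 8 of 8 values below 0 in each and medians of −1.17 in tt1, −1.45 in tt3 and −0.52 in tt5. CASP1 itself was at −0.73 ± 1.28 in ttg1, −1.52 ± 1.03 in tt8, −1.63 ± 1.27 in tt1, −2.01 ± 1.27 in tt3 and −0.61 ± 1.28 in tt5 (SE). Single libraries moved these values by over 1.5 times: tt3 gave −3.44 without tt3-3 and −1.31 without tt3-4, ttg1 gave −1.50 without ttg1-23 and −0.24 without ttg1-24, and tt5 gave −0.15 without tt5-3 and −1.29 without tt5-4. The counts of all genes called moved as well: without ban-7, ttg1 had 506 calls in place of 304, tt8 1019 in place of 419, tt1 520 in place of 221, tt3 388 in place of 85 and tt5 77 in place of 39. Leaving out 1 line of the locus itself left as few as 24 in ttg1 (without ttg1-24), 159 in tt8 (without tt8-11), 41 in tt1 (without tt1-4), 17 in tt3 (without tt3-3) and 18 in tt5 (without tt5-4). The members with an unadjusted edgeR p under 0.05 were SGN3 in ttg1, SGN3 in tt1 and PER64 in tt8, and there was none in tt3, in tt5 or over the mean of the loci. That is 1 of 8 members in each, where 18.9% of all genes in ttg1, 16.7% in tt1 and 20.5% in tt8 had such a p. SGN3 was at −0.99 ± 0.35 in ttg1 (SE, edgeR adjusted p = 0.156) and at −0.89 ± 0.35 in tt1 (SE, edgeR adjusted p = 0.233). PER64 was at −1.87 ± 0.86 in tt8 (SE, edgeR adjusted p = 0.242). DESeq2 called 0 of 8 in each of these comparisons. SGN3 was called in ttg1 when Col-0 was counted as 2 samples (adjusted p = 0.0348), and PER64 was called in tt8 when the tt8 libraries and Col-0 were fitted alone (adjusted p = 0.0403).

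Between the 5 loci, without Col-0 or ban, 0 of 8 members were called by edgeR, against 0% of all genes, and none of the 8 had an unadjusted p under 0.05. The smallest p was that of SGN3 (0.0625, edgeR adjusted p = 0.529). DESeq2 called 0 of 8 members and 1291 genes in the same comparison.

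Genes of the suberin coat, which is also made in the endodermis, were called in the same fit. Of 9 suberin genes tested, 6 fell over the mean of the loci, against 0.977% of all genes called lower, and 7 fell in tt8, against 0.812%. They included the acyltransferase gene GPAT5 (mean of loci −1.94 ± 0.25, adjusted p = 0.00442), the fatty acid hydroxylase gene CYP86A1 (−1.74 ± 0.23, adjusted p = 0.00479) and the transporter gene ABCG20 (−1.49 ± 0.18, adjusted p = 0.00336). GPAT5 stood at 10.0 to 22.5 CPM in the 16 mutants, all of them below the 56.5 CPM in Col-0. The standard errors of CASP1, CASP2, CASP4, CASP5, MYB36 and PER64 in that contrast were 0.76 to 1.44, against 0.18 to 0.25 for these 3 suberin genes. The 3 were taken from the called genes, which favours small errors. Tested suberin genes that were not called in ttg1 had an SE of 0.42 to 0.68 there. Both ban lines enter the error of every gene. For the strip genes this error includes the gap between ban-6 and ban-7, and the low CASP1 of ban-7 chose the set. The suberin calls were lost over the mean of the loci, at 0 of 9, with a term for line ends and also without the 6 libraries above Col-0 in their targeted gene. Without the 6 libraries no tt3 line is left, so the mean in that setting leaves tt3 out. In tt8 the line-end term and the loss of the 6 libraries left 3 and 0 calls. Over all genes these settings left 15 and 0 calls over the mean of the loci, and 31 and 0 in tt8. The loss was therefore not particular to suberin genes. Whether suberin and strip genes differ in their response was not tested.

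**Figure D2:**
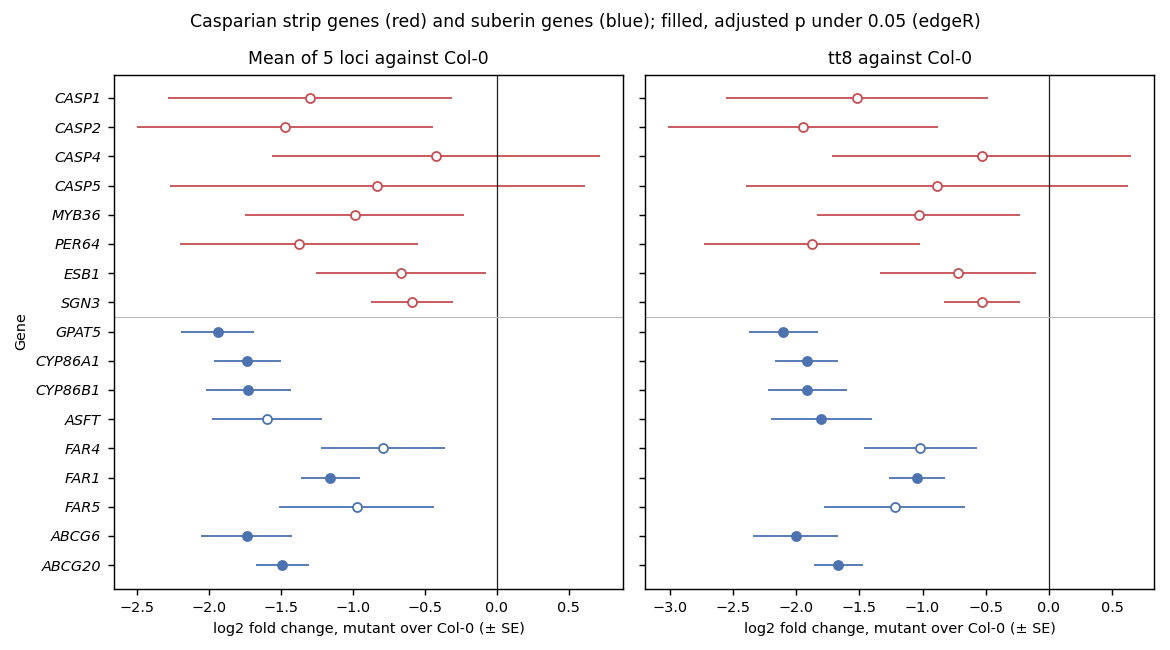
Fitted log2 fold changes, mutant over Col-0, with SE bars, for the 8 Casparian strip genes (red, top) and 9 suberin genes (blue, bottom), over the mean of 5 loci and in tt8. Filled points have an adjusted p under 0.05 (edgeR): all strip genes are open, with CASP1 at −1.30 ± 0.99 over the loci, and GPAT5 at −1.94 ± 0.25 is filled.

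Across the samples the strip genes moved together. Over 16 samples without ban-7, log2(CPM + 1) of CASP1 correlated with CASP2 at Pearson r = 0.979 (Spearman rho = 0.95), with PER64 at r = 0.944 (rho = 0.938) and with MYB36 at r = 0.920 (rho = 0.915). The permutation p of each r was 1e-05, the smallest that 100000 permutations can give, and 2.33e-05 after adjustment over the 7 pairs computed, with adjusted p of rho from 3.5e-05 to 4.67e-05. CASP5 followed at r = 0.862 (rho = 0.876; permutation p = 3e-05 and adjusted p = 5.25e-05 for both) and CASP4 at r = 0.797 (rho = 0.782; permutation p = 0.00025 and 0.00058, adjusted p = 0.00035 and 0.000812). Without tt3-4 and ban-6, the samples farthest from the CASP1 median, r was 0.973 for CASP2, 0.931 for PER64, 0.887 for MYB36, 0.789 for CASP5 and 0.671 for CASP4 (adjusted permutation p up to 0.0125). Within the 13 samples whose files had Unix line ends the 5 values lay between 0.828 and 0.983, and the 3 samples with Windows line ends were too few for a value. Over the 10 samples left without the libraries above Col-0 in their targeted gene they lay between 0.820 and 0.982. The permutations took the samples as exchangeable, although alleles share a locus and genes share the composition of each library. These p, and those for the marker lists below, may therefore be too small.

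SGN3 and ESB1 stood apart from this group. SGN3 correlated with CASP1 at r = 0.127 (rho = 0.0529; permutation p = 0.639 and 0.85, adjusted p the same), and at −0.0425 without ban-6. ESB1 gave r = 0.407 (rho = 0.441; permutation p = 0.118 and 0.0892, adjusted p = 0.138 and 0.104), on 6 to 21 counts per sample. Without tt5-4 the r of ESB1 was 0.626 (adjusted permutation p = 0.0145), without ttg1-24 it was 0.545 (adjusted permutation p = 0.0431), and without tt3-4 and ban-6 it was 0.197, so its relation to CASP1 rested on single samples. SGN3 gave 0.0927 without tt3-4 and ban-6.

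**Figure D3:**
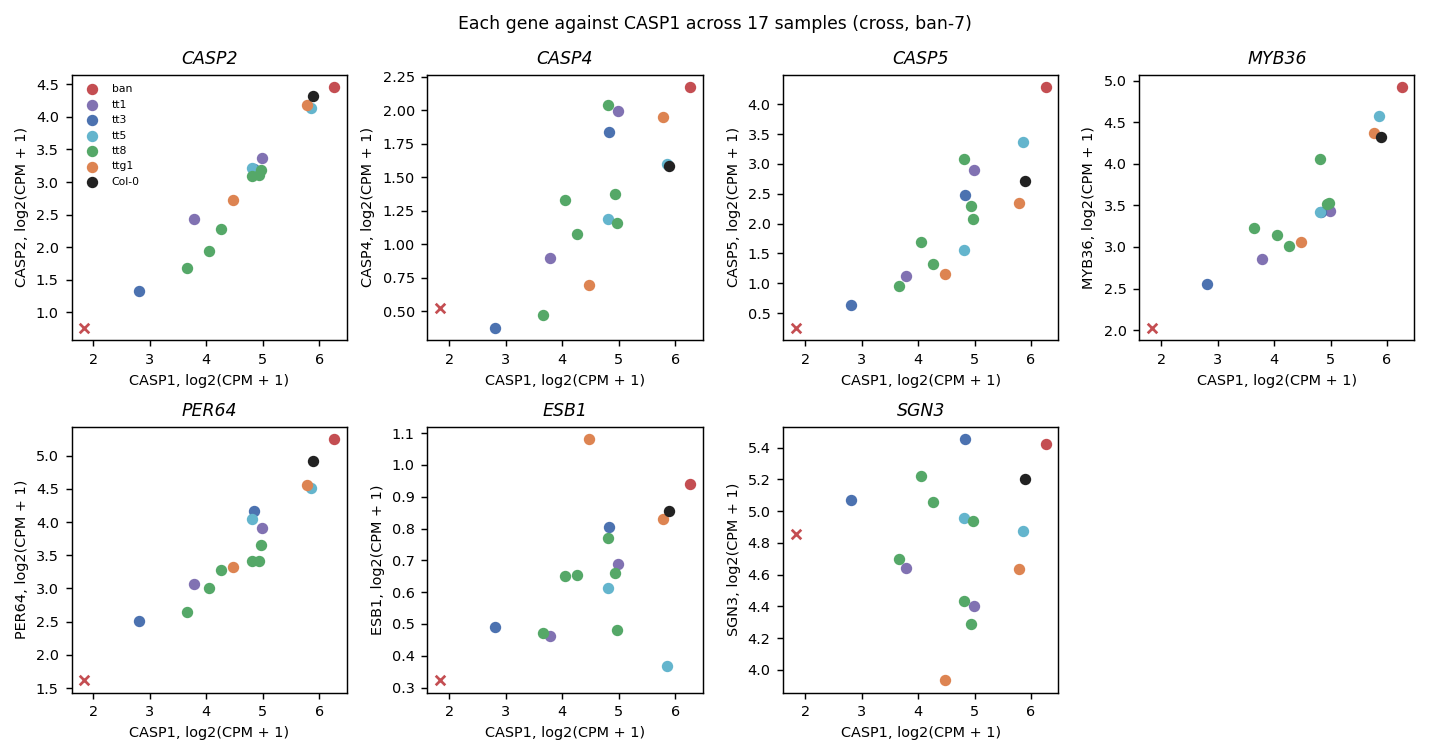
Each of 7 genes against CASP1, both as log2(CPM + 1), 1 point per sample coloured by locus, with ban-7 as a cross. CASP2, PER64 and MYB36 lie along a line (r = 0.979, 0.944 and 0.920 over 16 samples without ban-7), and SGN3 does not (r = 0.127).

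Other genes had levels like those of CASP1, which is given as a description with no test because the samples share 6 loci and the composition of each library. Of 21176 genes that are not members, 117 had r above 0.9 with CASP1 over the 16 samples without ban-7, and 581 did over the 10 samples that also leave out the libraries above Col-0 in their targeted gene. Over all 17 samples there were 204, and this ranking includes the ban-7 level that chose the set. The 10 most like CASP1 over the 17 samples were AT3G55230 (r = 0.988) and AT4G13580 (0.981), both annotated as dirigent-like, UCC1, a uclacyanin (0.974), AT1G30750 (0.969), the peroxidase gene AT5G66390 (0.966), the O-methyltransferase gene IGMT5 (0.959), the bHLH gene AT1G68810 (0.954), AT1G56020 (0.951), the homeodomain-like gene AT5G05790 (0.949) and the protein kinase gene AT5G37790 (0.948). AT3G55230 was at 78.7 CPM in ban-6, 3.57 CPM in ban-7 and 67.3 CPM in Col-0. The 10 most like the mean of the members shared 4 of these genes and added another dirigent-like gene, AT2G39430 (0.970), AT2G47500 (0.961), the peroxidase gene AT1G44970 (0.960), the papain protease gene AT4G11320 (0.960), AT5G06610 (0.960) and the laccase gene LAC3 (0.956). Of the 16 genes found by either measure, 7 were among the 17 identifiers listed for the strip machinery, and that list was drawn up with earlier results of these data known. Of the 10 genes of each ranking, 10 and 9 had their lowest level in ban-7. Without ban-7 these genes had r of 0.929 to 0.985 with CASP1 and 0.939 to 0.973 with the mean of the members, and 5 and 8 of them were still among the 10 most alike.

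Among genes of the strip machinery whose listed names the reference table gave, 6 of 17, LAC3 and UCC1 were among the genes most like CASP1 or the member mean, and the other 4 were not. The sulfotransferase gene TPST, which matures the peptide ligands of SGN3, stayed between 23.6 and 37.2 CPM in every sample. The SGN3 homologue GSO2 was at 30.6 CPM in ban-7, against 14.5 CPM in ban-6 and 12.6 CPM in Col-0. It was higher still in tt1-4 (34.9 CPM), tt8-11 (31.7 CPM) and tt8-12 (31.4 CPM). RBOHF, at 100 to 168 CPM, and EXO70A1, at 88.9 to 116 CPM, were above Col-0 (57.7 and 80.1 CPM) in every mutant line. The share of all genes above Col-0 in every line is not given here, so this separation has no background. Over all 17 listed identifiers, names aside, none was called in any comparison with Col-0. Over the mean of the loci 13 of the 17 were below 0, with a median log2 fold change of −0.99, and 2 had an unadjusted p under 0.05 in edgeR, where 19.4% of all genes had one. The 6 with a listed name in the reference table had a median of 0.02. The 4 CASP-like identifiers were not called either, with a median of −0.29 and 1 unadjusted edgeR p under 0.05. Of 8 regulators of endodermal identity, 1 fell in tt8: MGP, a zinc finger partner of SHR and SCR, at −2.96 ± 0.64 (adjusted p = 0.0386). This call was lost with a term for line ends (adjusted p = 0.162), without the 6 libraries above Col-0 in their targeted gene (0.308), and without any of tt8-7, tt8-8, tt8-9, tt8-11 or tt8-12 (0.0509 to 0.0739). Over all genes, tt8 had 31 calls left with the line-end term and 0 without the 6 libraries. MGP was at 0.332 to 0.835 CPM in the tt8 libraries and 0.313 CPM in ban-7, against 3.36 CPM in Col-0. These mutant levels rest on few counts, as 3 counts make 0.123 to 0.218 CPM in the tt8 libraries and 0.188 CPM in ban-7. Over the mean of the loci 0 of 8 were called, 6 had an unadjusted p under 0.05 in edgeR, against 19.4% of all genes, and all 8 values were below 0 with a median of −0.94. Of 2 further identifiers on the list without a matching name, AT1G14580 fell in ttg1 (−1.61 ± 0.33, edgeR adjusted p = 0.0369). That call was lost without ttg1-24 (adjusted p = 0.148), with a term for line ends (0.3), without the 6 libraries above Col-0 in their targeted gene (0.155) and with the compared libraries alone (0.264). Over all genes, ttg1 had 10 calls left with the line-end term, 3 without the 6 libraries and 0 with the compared libraries alone. In ban-7 all 8 named regulators were below Col-0, at 0.0930 to 0.932 times its level with a median of 0.428, against 4 of 8 below Col-0 in ban-6. This was not particular to ban-7, as all 8 were also below Col-0 in tt3-4, tt8-7, tt8-8 and tt8-10. SHR, which moves into the endodermal layer and acts with SCR, was at 12.3 CPM in ban-6 and 3.69 CPM in ban-7, against 16.9 CPM in Col-0. SCR was at 34.0 CPM in ban-6 and 27.4 CPM in ban-7, against 29.4 CPM in Col-0.

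A summed level of root markers moved with CASP1. The summed level of 3 general root and cortex genes, of which the root beta-glucosidase gene PYK10 made up 89.4% to 98.4%, correlated with CASP1 over the 16 samples at r = 0.847 (rho = 0.859; permutation p = 8e-05, adjusted p = 0.00056 for both, over 7 lists). It was 1249 CPM in ban-6, 236 CPM in ban-7 and 1330 CPM in Col-0, and r was 0.792 without tt3-4 and ban-6, 0.820 within the Unix files and 0.862 without the libraries above Col-0 in their targeted gene (adjusted permutation p = 0.0116). The suberin sum gave r = 0.579 (rho = 0.629; permutation p = 0.0193 and 0.0112, adjusted p = 0.0544 and 0.0392), and r = 0.779 without the libraries above Col-0 in their targeted gene (adjusted permutation p = 0.0131). The seed list gave r = −0.541 (rho = −0.521; permutation p = 0.0299 and 0.0410, adjusted p = 0.0544 and 0.0718) and the shoot photosynthesis list r = 0.541 (rho = 0.562; permutation p = 0.0311 and 0.0256, adjusted p = 0.0544 and 0.0597). Lists of root hair and epidermis (r = 0.274), stele (−0.269) and root tip (0.440) had adjusted permutation p from 0.123 to 0.313 for r. Single genes made up most of several sums: PHO1 was at least 99.0% of the stele sum, RBCS1A 87.5% to 95.7% of the shoot sum and RHD6 63.4% to 96.0% of the root hair sum. The remaining genes of these lists had few counts and were lower in ban-7 than in ban-6 and Col-0. Those of the stele list summed to 5.27 CPM in ban-6, 0.0626 CPM in ban-7 and 4.92 CPM in Col-0. Those of the root hair list summed to 13.5, 1.57 and 3.8 CPM in the same samples. Low sums were not particular to ban-7. In tt8-7 and tt8-8 the root hair remainder was lower still, at 0.424 and 0.726 CPM. The stele remainder was 0.849 and 1.09 CPM there. The oil body gene OLEO1 was at 12.2 CPM in ban-6, 812 CPM in ban-7 and 53.7 CPM in Col-0, while the whole seed list summed to 1267, 4307 and 2145 CPM in the same samples. OLEO1 was higher than in ban-7 in tt1-4 (1945 CPM), tt8-11 (1219 CPM), tt8-12 (911 CPM) and tt5-3 (882 CPM). The median seed sum of the mutants was 3922 CPM. The summed seed level of the mutants ran from 864 CPM in ttg1-24 to 19815 CPM in tt1-4, and the shoot sum from 89.5 CPM in ban-7 to 309 CPM in tt8-7, against 178 CPM in Col-0. No marker of these lists was at 0 in every sample. The part of these tissue differences in the levels of the strip genes was not tested.

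**Figure D4:**
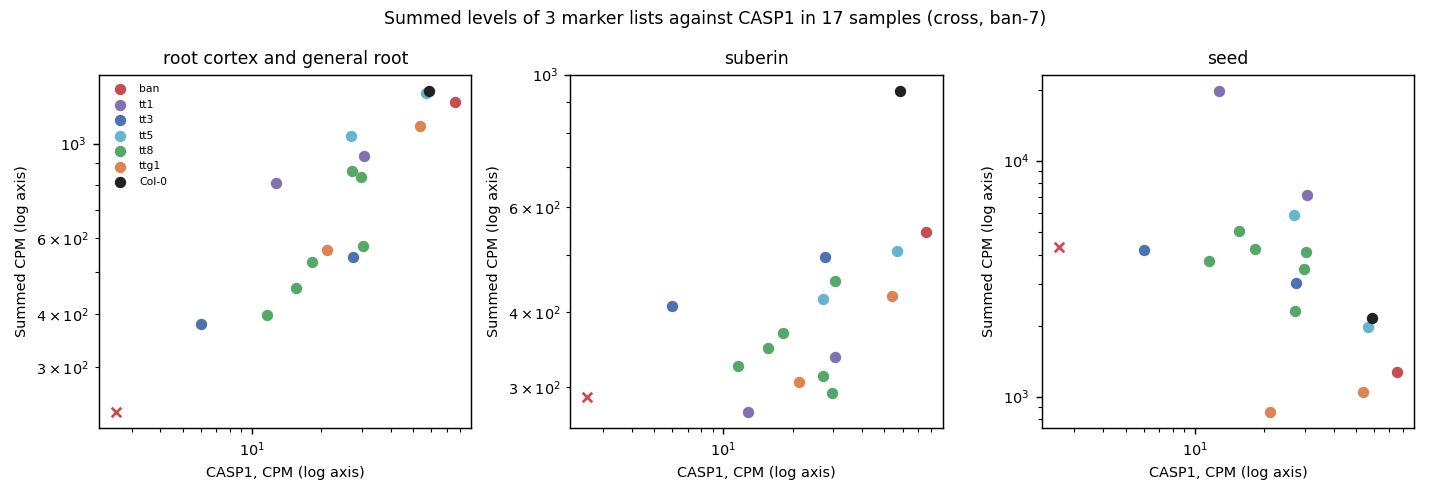
Summed CPM of 3 marker lists against the CPM of CASP1, both on log axes, 1 point per sample coloured by locus, with ban-7 as a cross. The root list, mostly PYK10, runs from 236 CPM in ban-7 to 1330 CPM in Col-0 along with CASP1, the suberin list puts Col-0 (940 CPM) above all mutants (273 to 545 CPM), and the seed list is highest in tt1-4.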

How the data were processed

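Counts per gene were deposited by the authors as 1 file per library, with 33939 identifiers in each. Per the labels' protocols, stranded mRNA libraries were made from 1 µg of total RNA, and the submitters' processing notes name HISAT2 and the build TAIR10. How reads were counted (program, annotation, strand) is not stated, so overlapping genes are uncertain. The 1392 rows without a nuclear locus, 0.00637% to 0.0204% of the counts of a library, stayed out of library sizes and tests. From the counts, CPM was computed over 32547 loci. The Col-0 files (chi-square per degree of freedom 0.222, against 9.54 to 143 for 20 pairs of mutant libraries of 1 locus) were averaged to 1 sample, assumed to vary like the other groups.

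All 17 samples and 7 groups entered 1 fit with edgeR 4.0.16 (R 4.3.3; TMM, filterByExpr, robust quasi-likelihood F-test, 21185 genes, 10 residual degrees of freedom, two-sided, Benjamini-Hochberg at 0.05), and every adjusted p of a fold change is from it. The script was tested on simulated data. Correlations used log2(CPM + 1) and two-sided permutation tests with 100000 resamples (numpy 2.4.6). The permutations took the samples as exchangeable, which shared loci and library composition may break, so their p may be too small. P-values measure the spread between these samples, which may be technical. Alternatives were other scaling (RLE), DESeq2 1.42.0, no filter, no robust option, Col-0 as 2 samples, a term for Windows or Unix line ends, the compared libraries alone, and leaving out libraries.

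The members and lists were chosen with earlier results of these data known, and the relations to tissue lists were added after seeing the data. Of the genes that the rule names, 1 more is not reported here and is left out of every count and of the pairs. The text names the 8 members, up to 4 called genes per endodermal or suberin list and comparison, OLEO1 with the summed tissue lists, and the 10 genes most like CASP1 and most like the mean of the members. TPST, GSO2, RBOHF, EXO70A1, SHR, SCR, LAC3, UCC1, PYK10, PHO1, RBCS1A and RHD6 were named after their values were seen. Gene names, coordinates and upstream sequences are from RefSeq for TAIR10.1, while the count files hold no coordinates.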

Additional observations from a re-analysis of the deposited data

Results flagged for a closer look

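Among the 6 tt8 libraries, where the 8 strip genes and 10 summed marker lists were checked for a sample far from the others, 2 of the 18 were picked out, and chance picks about 1 in 20. No strip gene was among them. The summed shoot photosynthesis level was 308.6 CPM in tt8-7, against 139.9 to 188.7 CPM in the other tt8 libraries. Of the tt8-7 sum, 295 CPM came from RBCS1A alone, and the other 4 shoot genes summed to 13.3 CPM there, against 7.84 to 17.2 CPM in the other tt8 libraries. The summed root stele level was 1482 CPM in tt8-8, against 776 to 1030 CPM in the other tt8 libraries. PHO1 alone made up 1481 CPM of it in tt8-8, and the other 3 stele genes summed to 1.09 CPM there.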

How the results depend on the processing

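The count of strip genes called was 0 in the 7 comparisons under all alternatives run for them, with 2 exceptions. Counting Col-0 as 2 samples gave 1 in ttg1 (SGN3, −0.95, edgeR adjusted p = 0.0348). Fitting the compared libraries alone gave 1 in tt8 (PER64, −1.86, edgeR adjusted p = 0.0403). Without the libraries above Col-0 in their targeted gene no tt3 line is left. The tt3 comparison was therefore not run in that setting, and its mean of the loci leaves tt3 out. The comparison between the loci was not run with Col-0 as 2 samples. Leaving out in turn each line of the compared loci, or ban-7, gave 0 in each. Fits without ban-6 were not run. Counts over all genes moved more, from 39 to 419 in single loci to between 865 and 4347 with Col-0 as 2 samples, between 371 and 1486 with DESeq2, between 9 and 31 with a line-end term, between 77 and 1019 without ban-7 and between 0 and 3 without the libraries above Col-0 in their targeted gene, an alternative chosen after seeing the data. The cause was not tested. Fitted folds of the members named in the text kept their sign in all alternatives. Of the suberin genes, 6 fell over the mean of the loci and 7 in tt8. These counts became 0 and 3 with a line-end term and 0 and 0 without the libraries above Col-0 in their targeted gene. Leaving out in turn each line of the compared loci, or ban-7, gave 6 to 7 over the mean and 5 to 7 in tt8.

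The r of CASP1 with CASP2, CASP4, CASP5, MYB36 and PER64 stayed past the threshold in all alternatives. With ESB1 r was 0.547 when ban-7 was included, which is described without a test because ban-7 chose the set, and leaving out each library gave 0.299 to 0.626. With SGN3, which never passed, leaving out each library gave −0.0425 to 0.263. Median levels under TMM-scaled CPM moved by less than 1 SD. No paired analysis was possible because replicate numbers were given in the order of the labels and each number is a different allele. A term for line ends is estimated from the tt8 libraries, since Col-0 held Windows files alone. ESB1, with 4 to 21 counts per sample, was limited by depth.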
